A study of Mus musculus with 12 samples.

Results

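The interferon-inducible p200 family (also called HIN-200 or PYHIN genes) was described in mouse macrophages through 8 genes of its cluster on chromosome 1, Aim2, Ifi203, Ifi204, Ifi205, Ifi207, Ifi209, Ifi211 and Mndal. They were picked by symbol out of 47937 genes counted, and all 8 passed the filter on low counts. RNA was sequenced from bone marrow-derived macrophages of C57BL/6 mice, grown with CSF-1, in 4 groups of 3 libraries (n = 3). Whether the 3 samples of a group came from separate mice or cultures is not stated for these libraries. Resting macrophages (M0) were compared with inflammatory macrophages stimulated for 18 h with 50 ng/ml IFNγ and 20 ng/ml LPS (IFNγ + LPS). Each state was also cultured with DGAT1i, the inhibitor T863 at 50 μM, which blocks DGAT1, an enzyme of the last step of triacylglycerol synthesis. The labels give 18 h for both groups with DGAT1i and no time for M0 without it. The study's methods name 18 h for macrophages kept in medium or stimulated, but not for these libraries in particular. If M0 had another time, it would differ in time in culture from M0 with DGAT1i and from IFNγ + LPS. In the labels, 2 of the 3 libraries of M0 plus DGAT1i are described with another compound number, whereas their source names give T863. No group was given IFNγ or LPS alone, so the contributions of these 2 stimuli cannot be told apart. The question was how the RNA of these genes changed on inflammatory activation and how much of it was present when triacylglycerol synthesis was inhibited.

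Proteins of this family typically join an N-terminal pyrin domain, which binds other pyrin domains, to a C-terminal HIN domain, which binds DNA. AIM2 is the best known: it senses double-stranded DNA in the cytosol and recruits the adaptor ASC (gene Pycard), on which caspase-1 is activated. IFI204 has been linked to DNA sensing upstream of STING. Many of the genes are induced by interferons through STAT and IRF factors, which bind the interferon-stimulated response element (ISRE) or the GAS element, while LPS also acts through NF-κB.

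The 8 genes lie among 14 annotated genes of the cluster between positions 173350879 and 174031810 of chromosome 1 (GENCODE M21, GRCm38), a stretch of 680.9 kb. From the first coordinate on, the order is Aim2, Ifi206, Ifi214, Ifi213, Ifi209, Ifi208, Ifi207, Ifi204, the pseudogene Ifi203-ps, Mndal, Ifi211, Ifi203, Ifi202b and Ifi205. Aim2 (173350879 to 173466040) and Ifi209 (173630917 to 173647928) are on the plus strand. The other members are on the minus strand: Ifi207 at 173723427 to 173741747, Ifi204 at 173747293 to 173766943, Mndal at 173849126 to 173942491, Ifi211 at 173896345 to 173913046, Ifi203 at 173920407 to 173942672 and Ifi205 at 174011998 to 174031810. All 8 are annotated as protein coding. The Mndal gene model spans Ifi211 and reaches into Ifi203, with which it shares 37 exon bases.

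Start site windows of 300 bases (250 before and 50 after the RefSeq start, GRCm38.p6) were found for 7 members, all but Ifi204, in 9 windows. They were searched on both strands for the letters GAAA, any 2 bases, GAAA (ISRE), TTC, any 3 bases, GAA (GAS), and an NF-κB site of GGGA, then C or A, then TTTCC. The ISRE letters were found for 5 of the 7 members, Ifi203, Ifi205, Ifi207, Ifi211 and Mndal, against 3.44% of 32851 windows of this length. GAS letters were found for 0 of the 7 (8.3% of all windows), and the NF-κB letters for 0 of the 7 (0.16% and 0.09% of all windows). The 30 bases around each ISRE match on a member's own strand are shown, in the direction of the gene and with the match in capitals, because these letters recur at the starts of the family. The first capital lies at -41 from the RefSeq start in Ifi207, -36 in Mndal, -37 in Ifi211, -35 in Ifi203 and -134 in Ifi205.
Ifi207 (chr1:173741831-173741860): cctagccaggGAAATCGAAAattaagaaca
Mndal (chr1:173880204-173880233): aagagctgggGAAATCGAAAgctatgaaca
Ifi211 (chr1:173913064-173913093): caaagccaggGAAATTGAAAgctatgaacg
Ifi203 (chr1:173942508-173942537): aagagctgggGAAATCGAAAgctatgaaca
Ifi205 (chr1:174031870-174031899): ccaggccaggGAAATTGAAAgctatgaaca

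All 30 bases are the same in Mndal and Ifi203, and Ifi211 and Ifi205 share the variant GAAATTGAAA. Ifi205 had another match on the opposite strand at 24 after the start, and a further window of Mndal had TTTCTCTTTC at -54. Ifi206, Ifi208, Ifi213 and Ifi214, cluster genes outside the 8, each held GAAATCGAAA. The Ifi209 window had no ISRE match. Its nearest stretch lies at -79, the distance at which its copy Ifi214 holds the match, and differs from Ifi214 at 3 of 30 bases. Counted from 1 at the 5′ end of the 30 bases, with the base of Ifi214 first, these are G2A, G11T and C22A, and G11T falls on the first of the 10 ISRE letters. Both stretches are shown to make this visible, with the 10 bases in capitals.
Ifi214 (chr1:173536017-173536046): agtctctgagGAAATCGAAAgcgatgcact
Ifi209 (chr1:173630770-173630799): aatctctgagTAAATCGAAAgagatgcact

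The whole windows of the members with the largest and the smallest response to IFNγ + LPS (Ifi205 and Ifi207) and of the members without an ISRE match (Ifi209 and Aim2) follow, with any match in capitals. A match is a description of letters and no measured binding, a relation between the letters and the response was not tested, and the RefSeq starts are not those of every annotated transcript.
Ifi205 (chr1:174031706-174032005, minus strand): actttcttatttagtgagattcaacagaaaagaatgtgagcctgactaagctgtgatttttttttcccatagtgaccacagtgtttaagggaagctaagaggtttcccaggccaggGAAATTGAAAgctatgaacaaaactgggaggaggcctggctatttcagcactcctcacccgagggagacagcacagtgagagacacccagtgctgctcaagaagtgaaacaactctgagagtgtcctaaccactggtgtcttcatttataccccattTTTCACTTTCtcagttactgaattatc
Ifi207 (chr1:173741760-173742059, minus strand): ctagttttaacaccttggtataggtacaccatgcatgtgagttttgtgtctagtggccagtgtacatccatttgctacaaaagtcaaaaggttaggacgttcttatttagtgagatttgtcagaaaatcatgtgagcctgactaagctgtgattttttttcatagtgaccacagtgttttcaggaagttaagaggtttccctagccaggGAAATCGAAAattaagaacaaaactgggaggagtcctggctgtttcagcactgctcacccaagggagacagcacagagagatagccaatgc
Ifi209 (chr1:173630609-173630908, plus strand): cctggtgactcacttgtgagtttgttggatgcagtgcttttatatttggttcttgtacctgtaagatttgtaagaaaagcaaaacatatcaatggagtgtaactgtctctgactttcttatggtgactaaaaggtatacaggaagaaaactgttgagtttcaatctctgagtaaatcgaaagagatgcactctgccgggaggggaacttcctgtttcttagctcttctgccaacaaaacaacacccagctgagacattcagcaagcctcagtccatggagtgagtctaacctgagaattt
Aim2 (chr1:173420354-173420653, plus strand): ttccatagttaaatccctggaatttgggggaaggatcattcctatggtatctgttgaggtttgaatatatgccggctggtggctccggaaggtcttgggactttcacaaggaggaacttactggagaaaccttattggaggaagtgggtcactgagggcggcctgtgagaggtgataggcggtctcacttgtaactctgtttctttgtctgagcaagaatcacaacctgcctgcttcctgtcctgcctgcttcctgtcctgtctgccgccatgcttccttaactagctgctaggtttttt

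The libraries held 4996014 to 6621671 counted reads, so that 1 CPM (counts relative to library size, scaled by TMM) is worth 4.28 to 7.58 reads. All 8 macrophage markers looked up (among them Adgre1, Csf1r and Cd68) were detected in every group. Markers of other cells are given as sums over each list. The 5 T and NK cell markers summed to at most 0.278 CPM and the 4 mast cell and basophil markers to at most 0.233 CPM. The 4 B cell markers summed to 2.03 to 2.66 CPM in M0, 0.531 to 1.85 in M0 with DGAT1i, 0.211 to 0.562 in IFNγ + LPS and 0.209 to 0.700 with both, and the 4 fibroblast markers to at most 0.139 CPM in M0, 0 in M0 with DGAT1i, 0.540 to 2.11 in IFNγ + LPS and at most 1.17 with both. The 9 neutrophil and granule markers summed to 31.6 to 38.7 CPM in M0, 15.2 to 25.5 in IFNγ + LPS and 63.0 to 81.0 in IFNγ + LPS with DGAT1i, with Ly6g and Retnlg at 0 throughout. In M0 with DGAT1i this sum was 22.9 CPM in the lowest library and below every M0 library in the highest. The 4 dendritic cell markers summed to 0.133 to 0.835 CPM in M0, 0.264 to 0.568 in M0 with DGAT1i, 5.62 to 7.16 in IFNγ + LPS, where Xcr1 alone had 5.53 ± 0.685, and 1.04 to 1.40 once DGAT1i was added. The part of these cells in the members' values was not tested. In such bulk samples, fewer cells of a type and less RNA per cell cannot be told apart.

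Resting macrophages held RNA of all 8 genes, at levels that ranged widely. Levels were compared between genes as CPM per kb of exon. Ifi207 was highest in M0 with 38.5 ± 2.98 CPM per kb (SD, n = 3), followed by Ifi204 with 17.1 ± 1.08, Mndal with 11.5 ± 0.618 and Aim2 with 8.97 ± 0.436. Ifi211 followed with 4.88 ± 0.451 CPM per kb, then Ifi203 with 3.20 ± 0.128 and Ifi209 with 2.92 ± 0.136. The ranges of Ifi203 and Ifi209 overlapped. Ifi205 was last with 0.0768 ± 0.0365 CPM per kb, on 7 reads in 3 libraries. In M0, Ifi207 made up 44.1% of the summed CPM per kb of the family, Ifi204 19.6%, Mndal 13.2% and Aim2 10.3%.

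All 8 genes rose on stimulation with IFNγ + LPS. Of all 11760 genes tested, 37.1% rose (adjusted p under 0.05, edgeR), and the median log2 fold change was 3.59 over the members and 0.01 over all genes. The 3 libraries with IFNγ + LPS lay above the 3 M0 libraries for each member, as they did for 38.2% of all genes. The increase ranged from 2.17-fold in Ifi207 to a read ratio of 1507 in Ifi205, so the family moved in 1 direction but by very unequal amounts.

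**Figure D1:**
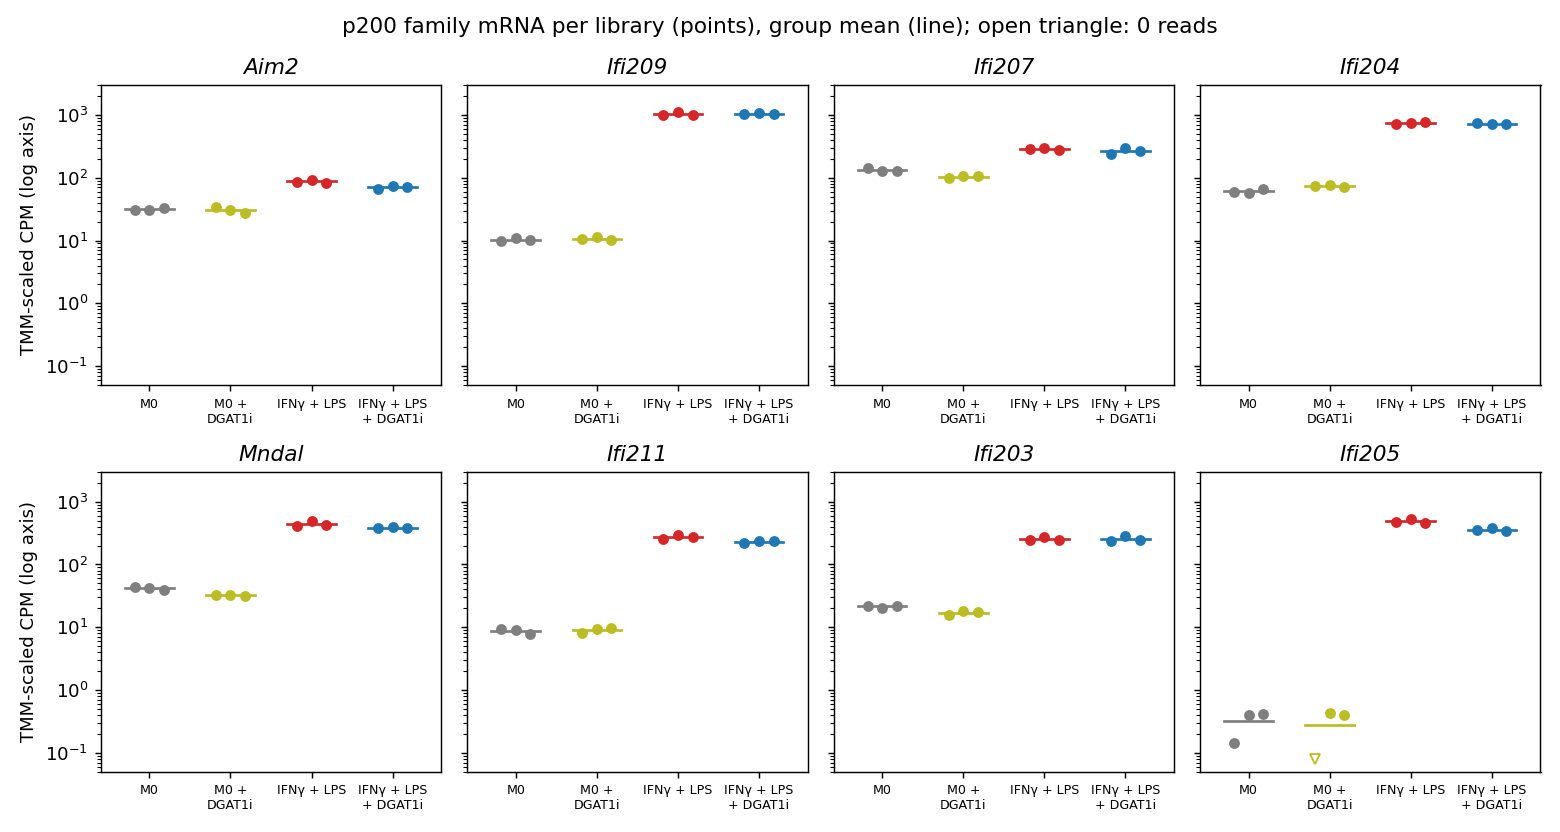
TMM-scaled CPM on a log axis for the 8 p200 genes in the 3 libraries of each group (points) with the group mean (line); the open triangle marks the M0 library with DGAT1i that had 0 Ifi205 reads, which a log axis cannot place. All 3 IFNγ + LPS libraries sit above all 3 M0 libraries in each panel, from a small step in Ifi207 (126 to 143 CPM against 272 to 302) to a step from under 1 CPM to 463 to 521 CPM in Ifi205.

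Ifi205, which encodes p205, went from close to no RNA to a level among those of the family's abundant members. It had 0.145, 0.400 and 0.418 CPM in the M0 libraries (1, 3 and 3 reads) and 480.5, 521 and 463 CPM after IFNγ + LPS. The read ratio was 1507 (95% counting interval 731 to 3749, counting error only), with an adjusted p of 1.34e-52. Ifi209 had 10.0, 10.9 and 10.2 CPM in M0 and 995, 1105 and 1003 CPM after stimulation. This is a log2 fold change of 6.64 (SE 0.08, adjusted p = 9.46e-57), and made Ifi209 the member with the highest level per kb of exon. Ifi211 rose from 9.30, 9.06 and 7.80 CPM to 252, 289.7 and 272 CPM (log2 fold change 4.96, SE 0.09, adjusted p = 5.30e-48). Ifi211 is the shortest member, and most of its sequence is shared with its neighbours, as described further down.

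A middle group of 3 genes rose about equally. Ifi204, the DNA sensor gene, had 60.1, 57.4 and 65.0 CPM in M0 and 721, 748 and 763 CPM after IFNγ + LPS (log2 fold change 3.61, SE 0.06, adjusted p = 5.62e-49). Ifi203 had 21.8, 20.5 and 22.1 CPM in M0 and 247, 275 and 242 CPM after stimulation (log2 fold change 3.57, SE 0.08, adjusted p = 1.98e-39). Mndal went from 44.0, 41.5 and 39.5 CPM to 412, 495 and 432 CPM (log2 fold change 3.42, SE 0.07, adjusted p = 1.26e-45). The 95% confidence intervals of the log2 fold changes of Ifi204 (3.49 to 3.73), Ifi203 (3.41 to 3.73) and Mndal (3.29 to 3.55) overlap.

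The members with the smallest response were Aim2 and Ifi207. Aim2, the inflammasome sensor gene, had 30.2, 30.9 and 33.1 CPM in M0 and 85.7, 92.9 and 83.7 CPM after IFNγ + LPS. This is a 2.78-fold increase (log2 fold change 1.48, SE 0.08, adjusted p = 1.41e-23). Ifi207, the most abundant member per kb at rest, had 143, 126 and 126 CPM in M0 and 284, 302 and 272 CPM after stimulation (log2 fold change 1.12, SE 0.06, adjusted p = 2.60e-19).

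**Figure D2:**
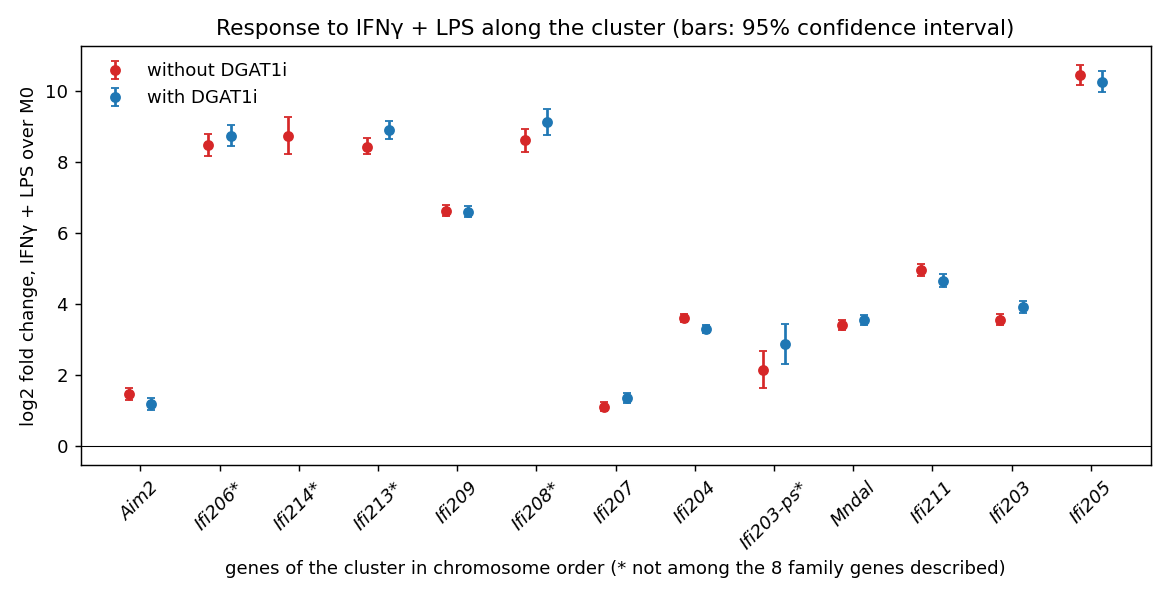
Log2 fold change of IFNγ + LPS over M0 without and with DGAT1i, with 95% confidence intervals, for the cluster genes tested in chromosome order; asterisks mark genes outside the 8 described, and Ifi214 with DGAT1i is left out because its M0 libraries with DGAT1i had 0 reads. Ifi205 (10.47) and Ifi209 (6.64) stand highest among the 8, Aim2 (1.48) and Ifi207 (1.12) lowest.

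The make-up of the family's RNA therefore differed between the states. With IFNγ + LPS, Ifi209 was highest with 292 ± 17.3 CPM per kb, ahead of Ifi204 with 209 ± 6.01 and Ifi211 with 152 ± 10.5. Mndal (123 ± 11.9) and Ifi205 (117 ± 7.05) overlapped, and Ifi207 (83.6 ± 4.43), Ifi203 (38.0 ± 2.68) and Aim2 (25.0 ± 1.38) followed. Aim2 thus ranked above Ifi211, Ifi203, Ifi209 and Ifi205 in M0 and below all of them after stimulation, although its RNA rose. Of the family's summed CPM per kb, Ifi207 held 44.1% in M0 and 8.05% in IFNγ + LPS, Ifi209 3.36% and 28.1%, and Ifi205 0.0893% and 11.2%. With the longest transcript as the length, Ifi204 came first after stimulation (324 CPM per kb against 301 for Ifi209). Levels per kb and shares thus depend on the length taken. Ifi205 in IFNγ + LPS had 117 CPM per kb of exon and 149 on its longest transcript. Reads of the 8 genes made up 0.0364% ± 0.00142 of all reads counted in M0 and 0.310% ± 0.0124 in IFNγ + LPS (SD, n = 3).

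**Figure D3:**
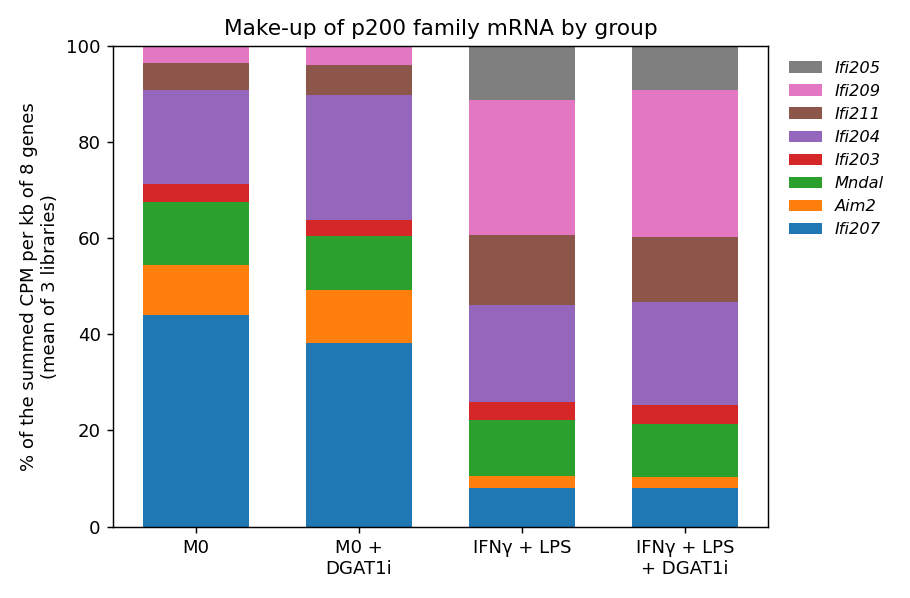
Share of each p200 gene in the summed CPM per kb of the 8 genes, as the mean of the 3 libraries of each group. Ifi207 takes 44.1% in M0 and 8.05% in IFNγ + LPS, Ifi209 goes from 3.36% to 28.1%, and Ifi204 goes from 19.6% in M0 to 26.0% in M0 with DGAT1i and has 20.1% in IFNγ + LPS.

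With DGAT1i in the stimulated cells the members' log2 fold changes ran from -0.44 in Ifi205 to 0.01 in Ifi209 and Ifi203. By the test 4 members were lower with DGAT1i (Ifi205, Aim2, Ifi211 and Mndal), 0 were higher and 4 did not pass the test, while differences between members were not tested. Among all genes tested 16.3% were lower and 13.5% higher. For the same 4 genes all 3 libraries with DGAT1i lay below all 3 without, which held for 21.6% of all genes. The median log2 fold change was -0.16 over the members and -0.01 over all genes.

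Ifi205 showed the largest decrease in this comparison. Its 480.5, 521 and 463 CPM compare with 359, 380.3 and 341 CPM in the libraries with DGAT1i, a log2 fold change of -0.44 (SE 0.06, adjusted p = 8.55e-09). By the fit, its RNA decreased by 26.2%. Aim2 had 85.7, 92.9 and 83.7 CPM without and 66.9, 74.5 and 70.0 CPM with DGAT1i (log2 fold change -0.31, SE 0.08, adjusted p = 0.00123). Ifi211 had 252, 289.7 and 272 CPM without and 221, 237 and 234 CPM with DGAT1i (log2 fold change -0.23, SE 0.06, adjusted p = 0.00102). In these 3 genes the highest library with DGAT1i stayed under the lowest without it. Mndal had 412, 495 and 432 CPM without and 383, 392 and 379 CPM with DGAT1i (log2 fold change -0.21, SE 0.05, adjusted p = 0.00172). Without replicate 2 of IFNγ + LPS, the highest of the Mndal libraries, its log2 fold change was -0.14 with an adjusted p of 0.0665.

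The other 4 genes overlapped between the groups. Ifi209 had 995 to 1105 CPM without and 1023 to 1067 CPM with DGAT1i, and the 95% confidence interval of its log2 fold change was -0.09 to 0.11. For Ifi203 the interval was -0.11 to 0.14 and for Ifi204 -0.14 to 0.06. Ifi207 had 272 to 302 CPM without and 239 to 295 CPM with DGAT1i, with an interval of -0.23 to 0.02 (adjusted p = 0.221). Without replicate 2 of IFNγ + LPS with DGAT1i, its log2 fold change was -0.19 and its adjusted p 0.0219. Ifi209, the member with the highest CPM per kb of exon after stimulation, thus had an interval that excludes a decrease of the size fitted for Ifi205.

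**Figure D4:**
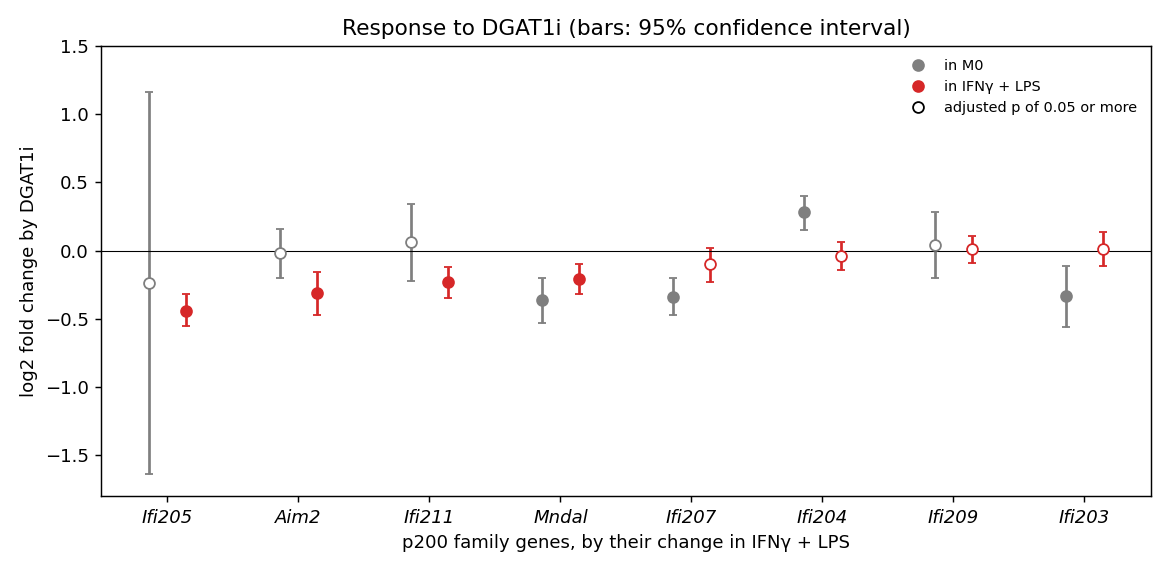
Log2 fold change by DGAT1i in M0 (grey) and in IFNγ + LPS (red) with 95% confidence intervals; open points have an adjusted p of 0.05 or more. In IFNγ + LPS the filled points run from -0.44 (Ifi205) to -0.21 (Mndal), and in M0 Ifi204 (0.28) is above 0 while Mndal, Ifi207 and Ifi203 are below; the wide bar is Ifi205 in M0, which rests on 7 reads without and 6 with DGAT1i.

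In resting macrophages with DGAT1i Ifi204 was higher, Mndal, Ifi207 and Ifi203 were lower and 4 genes did not pass the test, where 11.0% of all genes were higher and 13.4% lower. Groups without overlap were found for the same genes, 1 upward and 3 downward, against 17.9% and 19.9% of all genes. Ifi204 had 60.1, 57.4 and 65.0 CPM in M0 and 74.4, 75.8 and 70.7 CPM with DGAT1i (log2 fold change 0.28, SE 0.06, adjusted p = 7.12e-04). Mndal had 44.0, 41.5 and 39.5 CPM without and 32.5, 32.8 and 31.8 CPM with DGAT1i (log2 fold change -0.36, SE 0.08, adjusted p = 3.89e-04). The 3 Mndal libraries with DGAT1i lay close together and below all 3 without.

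Ifi207 had 143, 126 and 126 CPM in M0 and 98.3, 108 and 106 CPM with DGAT1i (log2 fold change -0.34, SE 0.07, adjusted p = 1.51e-04). Ifi203 had 150, 154 and 159 reads in the M0 libraries and 117, 127 and 133 reads with DGAT1i, or 21.5 ± 0.859 and 17.0 ± 1.32 CPM (SD, n = 3), without overlap (log2 fold change -0.33, SE 0.11, adjusted p = 0.0202). The Ifi203 call rested on single libraries: the adjusted p was 0.0630 without M0 replicate 1, 0.0679 without M0 replicate 3 and 0.115 without replicate 1 of M0 with DGAT1i. Aim2 had 30.2 to 33.1 CPM without and 27.6 to 34.3 CPM with DGAT1i, with a confidence interval of -0.20 to 0.16 on the log2 scale. The intervals were -0.20 to 0.28 for Ifi209 and -0.22 to 0.34 for Ifi211. For Ifi205, with 7 reads in M0 and 6 with DGAT1i, a change of the size seen in IFNγ + LPS was not detectable at this depth (interval -1.64 to 1.16).

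Whether DGAT1i acted differently in the 2 states was tested as the difference between its responses, in IFNγ + LPS minus in M0. Among the members 1 was higher, 1 lower and 6 did not pass, where 8.66% of all genes were higher and 9.80% lower. These counts are near the shares of all genes. Ifi204 had a difference of -0.31 on the log2 scale (SE 0.08, adjusted p = 0.00333), its response being 0.28 in M0 and -0.04 in IFNγ + LPS. Ifi203 had a difference of 0.35 (SE 0.13, adjusted p = 0.0449), with -0.33 in M0 and 0.01 in IFNγ + LPS. The Ifi203 difference was past the threshold in 3 of the 12 fits that left out a library, and its adjusted p was 0.0927 in DESeq2. Aim2 (-0.29, adjusted p = 0.0821) and Ifi207 (0.23, adjusted p = 0.0750) did not pass with all libraries. Aim2 passed without replicate 3 of M0 with DGAT1i (-0.37, adjusted p = 0.0305). Ifi207 passed without replicate 1 of IFNγ + LPS with DGAT1i (0.30, adjusted p = 0.00850) and with library size as the only scaling (0.28, adjusted p = 0.0234).

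All 8 genes also rose on stimulation in the presence of DGAT1i, where 35.3% of all genes rose and 36.1% had groups without overlap in this direction. The log2 fold changes were 10.27 for Ifi205, 6.61 for Ifi209, 4.67 for Ifi211, 3.92 for Ifi203, 3.57 for Mndal, 3.30 for Ifi204, 1.35 for Ifi207 and 1.19 for Aim2. The family took 0.0318% ± 7.42e-04 of all reads in M0 under DGAT1i, and 0.284% ± 0.00837 once these cells were stimulated (SD, n = 3).

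The members are near-identical in parts, and how the counting treated reads that fit several of them is not given in the sources used here. Windows were cut from the protein-coding transcripts of each member. Of all 50-base windows of Ifi211, 72.79% also occur in another gene, 44.71% in Ifi205. For Ifi205 the share was 49.55%, nearly all of it with Ifi211 (49.49%). This share covers 1564 windows, whereas the level of Ifi205 per kb used 4177 exon bases and would be higher on the shorter length. The longest Ifi205 transcript, of 3274 bases, had 0 bases at 95% identity with Ifi211. Ifi209 shared 35.07%, mostly with Ifi214, and Ifi204 (30.17%) and Mndal (30.13%) shared most with Ifi211. Ifi203 shared 16.54%, mostly with Ifi203-ps, and Ifi207 7.29%. Aim2 shared 0.77%, so its values, unlike those of Ifi211 and Ifi205, depend little on this. With 75-base windows the order was the same at both ends, 63.59% for Ifi211 and 0.0% for Aim2.

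**Figure D5:**
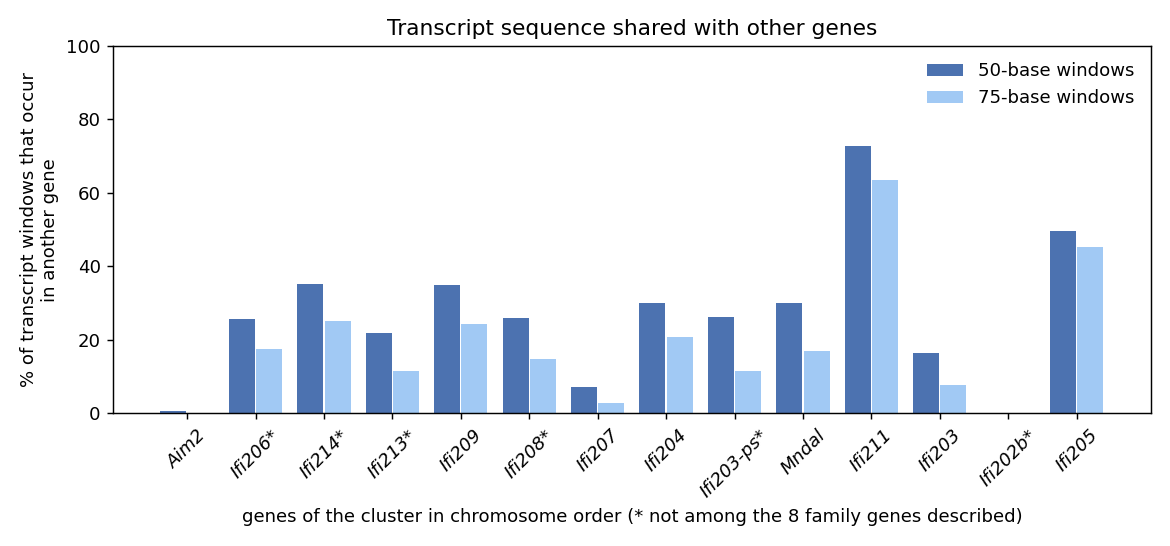
Share of the 50-base and 75-base windows of each gene's transcripts that also occur in the transcripts of another gene, in chromosome order. Only transcripts of the gene's own type were cut into windows (protein coding, or pseudogene for Ifi203-ps). Asterisks mark genes outside the 8 described. Ifi211 stands highest with 72.79% and 63.59%, followed by Ifi205 with 49.55% and 45.16%, and Aim2 is lowest of the 8 with 0.77% and 0.0%.

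When reads of near-identical copies were summed, Ifi203, Ifi204, Ifi205, Ifi211 and Mndal became 1 unit. The sum rose by 4.05 on the log2 scale with IFNγ + LPS (adjusted p = 1.31e-51). With DGAT1i it was lower in IFNγ + LPS (log2 fold change -0.17, adjusted p = 0.00660), while in M0 its log2 fold change was -0.01 (adjusted p = 0.951). Opposite directions cancel in such a sum, so it cannot decide on the separate changes of Ifi204, Ifi203 and Mndal in M0. Ifi209 summed with Ifi214 rose by 6.69 with IFNγ + LPS.

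The rest of the cluster was followed for context. Of 5 further genes with the family's annotation, 4 could be tested and all 4 rose with IFNγ + LPS: the log2 fold change was 8.49 for Ifi206, 8.62 for Ifi208 (8 reads in M0) and 8.44 for Ifi213, and Ifi214 went from 2 to 762 reads, a ratio of 525 (95% counting interval 145 to 4347). Ifi213 was lower with DGAT1i in IFNγ + LPS (log2 fold change -0.33, adjusted p = 1.59e-06), and the other 3 did not pass that test. Of 7 genes beside the cluster 3 were tested. With IFNγ + LPS Slamf9 rose (log2 fold change 1.27), Cd244a fell (-1.02, adjusted p = 0.00227) and Copa did not pass the test (-0.05, adjusted p = 0.388). With DGAT1i only Slamf9 of these 3 passed, being lower in stimulated (-1.34) and resting cells (-0.60).

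Lists of genes around the family were counted in the same fit and are read against the shares of all genes tested: 37.1% higher and 36.2% lower with IFNγ + LPS, and 16.3% lower and 13.5% higher with DGAT1i in stimulated cells. Of 18 inflammasome and pyroptosis genes 15 rose and 2 fell with IFNγ + LPS, with a median log2 fold change of 2.33. Gbp5 (12.82) and Gbp2 (11.18), guanylate-binding proteins that help release microbial DNA, and the cytokine gene Il1b (7.81) rose most. In M0 Gbp5 had 8 reads and Il1b 7 reads over the group, so the size of these 2 changes is uncertain. In stimulated cells DGAT1i lowered 11 of the 18 and raised 4, with a median of -0.25. Il1b (log2 fold change -1.68, SE 0.13, adjusted p = 3.15e-12) and Nlrp1b, another inflammasome sensor gene (-1.01), were lower, while Gsdme, a pore-forming gasdermin gene, was higher (0.76). Pycard, the gene of the AIM2 adaptor, fell with IFNγ + LPS (-0.88, adjusted p = 1.36e-13). With DGAT1i it was higher in stimulated cells (0.75, adjusted p = 2.03e-09) and lower in M0 (-0.36, adjusted p = 1.99e-04), a difference of 1.11 (adjusted p = 2.20e-10). In M0 3 of the 18 were higher and 3 lower with DGAT1i, beside 11.0% and 13.4% of all genes.

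Of 15 genes of cytosolic DNA sensing through STING, 13 were tested. With IFNγ + LPS 7 rose, led by Irf7 (6.88), Zbp1 (6.47) and Samhd1 (4.58), and 3 fell. With DGAT1i in stimulated cells 6 were lower and 1 higher. Tmem173, the gene of STING, was lower in IFNγ + LPS (log2 fold change -1.20, adjusted p = 2.44e-17) and in M0 (-0.86, adjusted p = 1.44e-10). Ikbke, a kinase gene of this pathway, was lower too (-1.22 and -0.60). In M0 5 of the 13 were lower and 0 higher, beside 13.4% and 11.0% of all genes.

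Genes that carry the interferon signal rose too: 13 of 14 receptor and STAT pathway genes were higher and 1 lower with IFNγ + LPS. Among those higher were the feedback inhibitors Socs1 (9.56, on 12 reads in M0) and Socs3 (8.78, on 21 reads in M0). With DGAT1i in stimulated cells 5 were lower and 1 higher. Irf9, a factor that binds the ISRE, was lower (log2 fold change -0.53, adjusted p = 2.80e-08), as was Tyk2 (-0.42), a receptor-associated kinase gene. Of 28 other interferon-induced genes 28 rose with IFNγ + LPS, with a median log2 fold change of 7.59. With DGAT1i in stimulated cells 17 of these were lower and 2 higher, with a median of -0.35, led by Gbp4 (-1.15), Cxcl10 (-0.86) and Mx2 (-0.78). The members' median of -0.16 and the 4 of 8 that were lower stand beside these values, and a difference between the lists was not tested. In M0 5 of the 28 were lower with DGAT1i and 0 higher, again beside 13.4% and 11.0% of all genes.

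The genes whose log2 CPM followed the mean of the members most closely over the 12 libraries were Trim30a (Pearson r = 0.9995), Dtx3l and Lgals9 (both 0.9994), Ifi213 of the same cluster (0.9994) and Ifi35 (0.9993). Trim30a had mean levels of 81.5 CPM in M0 and 1004 CPM in IFNγ + LPS. These correlations describe 12 libraries that split into stimulated and unstimulated ones, and 2412 of 11752 genes (20.5%) had an r over 0.9.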

How the data were processed

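The authors deposited raw read counts per gene for the 12 libraries, without normalization. Per the labels' processing notes the build is GRCm38 and DESeq2 was used; the study's methods name the RNA-seq pipeline of an institute core (snakePipes, from its reference), without the aligner, counting tool or annotation release used for these libraries. The study's methods name a stranded kit and the labels another kit, so strand-specific counting was not assumed. Identifiers were matched without version to GENCODE M21 (47310 of 47937).

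The analysis used edgeR 4.0.16 in R 4.3.3: filterByExpr (11760 genes kept), TMM scaling, 1 mean per group over all 12 libraries (glmQLFit, robust), quasi-likelihood tests with Benjamini-Hochberg adjustment over all genes, threshold 0.05. The fit was tested on simulated data. Totals ranged from 4996014 to 6621671 reads; the biological coefficient of variation was 0.0507. P-values measure only the spread between the 3 samples of a group, which may be technical. Copies were sought with BLAST 2.17.0 (95% identity over 20% of the longest transcript), and start windows came from RefSeq (GRCm38.p6). Protein identity was not analysed here. The values of 1 listed gene that the naming rule picks are not reported here.

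Genes named are the 8 members, of each list up to 3 genes with the largest change past the threshold per contrast (average log2 CPM 2 or more), and the 5 genes most like the family. Ifi214, Ifi209's copy, was added after its sequence was seen, and Cd244a and Xcr1 after their values were seen. The markers Csf1r, Ly6g and Retnlg, and the cluster genes given for their order, are also named outside this rule. The members and lists were chosen with earlier results of these data known. Alternatives were RLE factors, library size only, no filter, a mean CPM of at least 1, DESeq2 1.42.0, fits of the 6 libraries compared, a replicate block, summed copies, an adjusted p under 0.01, each library left out, another length and another denominator. Python 3.11.15 and matplotlib 3.10.9 were used for the figures.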

Additional observations from a re-analysis of the deposited data

Results flagged for a closer look

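The response to DGAT1i differed between resting and stimulated macrophages in 2 of the 8 members, 1 in each direction, where 8.66% of all genes were higher and 9.80% lower. These counts are near the shares of all genes and are no result about the family. Ifi204 had a difference of -0.31 on the log2 scale (SE 0.08, adjusted p = 0.00333 in edgeR): it was higher with DGAT1i in 3 of 3 M0 libraries, while its groups overlapped in IFNγ + LPS. Ifi203 had a difference of 0.35 (SE 0.13, adjusted p = 0.0449): it was lower with DGAT1i in 3 of 3 M0 libraries and overlapped in IFNγ + LPS. The Ifi203 call was lost in 9 of 12 fits that left out a library, in DESeq2 (adjusted p = 0.0927) and without a filter on low counts (adjusted p = 0.0974). Both genes belong to the set of near-identical copies through Mndal, while Ifi203 and Ifi204 share 0 bases at 95% identity with each other. The sum of the set had a difference of -0.16 (adjusted p = 0.131). Opposite directions cancel in such a sum, so it cannot decide on either gene. The part that the assignment of shared reads has in these differences was not tested.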

How the results depend on the processing

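With IFNγ + LPS, without or with DGAT1i, all 8 members rose in every alternative, 160 values each. With library size as the only scaling, the median of all genes moved to -0.46 (-0.43 with DGAT1i) and the share of all genes that rose from 37.1% to 19.9% (35.3% to 19.8% with DGAT1i). For DGAT1i in M0 it moved the genes higher to 7.53% and lower to 17.8%, and for the difference between the DGAT1i responses to 10.5% and 7.50%. It left Ifi209 at -0.02 for DGAT1i in M0 and 0.02 for the difference, where 2 members were then higher. Without a filter, DGAT1i in IFNγ + LPS gave -0.02 for Ifi203 and -0.03 for Ifi209. The number of members higher in the difference was 0 without a filter, in DESeq2, with copies summed and at an adjusted p under 0.01. With copies summed, DGAT1i in IFNγ + LPS gave -0.17 for Ifi203, DGAT1i in M0 gave -0.01 for Ifi204 and Ifi211, with 0 members higher and 1 lower, and the difference gave -0.16 for Ifi203 and Mndal, with 0 members lower. Apart from the sums, where values are merged by construction, the cause was not tested.

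Leaving out 1 library at a time gave, for DGAT1i in IFNγ + LPS, -0.08 to 0.07 for Ifi203 and -0.02 to 0.05 for Ifi209. For DGAT1i in M0 it gave -0.65 to 0.32 for Ifi205, -0.01 to 0.08 for Ifi209, -0.02 to 0.15 for Ifi211 and -0.10 to 0.05 for Aim2. For the difference it gave -0.76 to 0.21 for Ifi205 and -0.07 to 0.02 for Ifi209, and 0 to 2 members higher and 1 to 2 lower. Without the 10 most counted genes in the total, the family's share of reads was 0.0420% in M0 (0.0379% under DGAT1i) and 0.350% in IFNγ + LPS (0.328% under DGAT1i).

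Libraries share replicate numbers across groups, but neither the labels nor the correlations of same-numbered deviations (-0.022 to 0.069 over 18 pairs) met the rule for treating them as pairs. With 3 numbers to choose from, 9 of 12 libraries correlated best with their own, a hint of pairing that comes from the data and not from the design. With the replicate block 8, 4 and 3 members were called higher with IFNγ + LPS, lower with DGAT1i in IFNγ + LPS and lower with DGAT1i in M0, and the block changed no call of a member (Ifi203 difference 0.34). Depth limits Ifi205 in M0, at 7 reads.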
